A study of Mus musculus with 4 samples.

Results

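A set of 10 genes of testis macrophages was examined in RNA of whole mouse testes taken on postnatal day 17. The genes were taken by symbol from a table of 54232 genes, and all 10 of them were among the 25076 that held enough reads to be tested. They form 2 groups. The 6 lysosome and complement genes are Cd68, Lyz2, Laptm5, C1qa, C1qb and C1qc, and the 4 surface identity genes are Csf1r, Adgre1, Cd163 and Mrc1. The libraries were 2 from testes labelled Dis3 KO (KO), a conditional knockout, and 2 from control testes labelled Dis3 WT (WT). All 4 came from B6D2F1 mice of the same age. DIS3 is a ribonuclease that works with the RNA exosome to degrade and trim RNA. For the deletion, neither the Cre line nor the cells it acts in is given in the sources used here. Whether each library is a different mouse is not stated in the labels, so p-values cover only the spread among these 4 libraries, which may be technical.

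Macrophages are the main immune cells of the testis. They lie in the interstitium among the steroid-producing Leydig cells and around the outside of the seminiferous tubules, and their survival depends on signals through the receptor encoded by Csf1r. Inside the tubules dying germ cells are taken up mainly by Sertoli cells. A phagocyte binds a particle with surface receptors, takes it in, and breaks it down in lysosomes. Complement C1q, which macrophages themselves make, binds to dying cells and immune complexes and starts the classical complement pathway.

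The gene table held 17663416 and 19255782 reads in KO replicates 1 and 2, and 31031920 and 40329170 reads in WT replicates 1 and 2. The targeted gene Dis3 stood at 39.6 and 42.9 CPM (the usual counts-per-library-size unit, on the summed reads of the tested genes scaled by the trimmed mean of M-values, TMM) in KO testes, against 80.2 and 80.7 CPM in WT testes. Dis3 fell by 0.96 ± 0.0729 on the log2 scale (± SE; edgeR quasi-likelihood test, adjusted p = 2.34e-09). Reads of cells that keep the gene also count in whole testis. Markers of pachytene spermatocytes, the germ cells in mid-meiotic prophase, fell in KO testes for 16 of 18 genes, with a summed level of 5544 and 5092 CPM in KO replicates 1 and 2, against 8216 and 8508 CPM in WT replicates 1 and 2. Over all tested genes, 11.6% were higher and 20.3% were lower in KO testes at an adjusted p under 0.05. The count of higher genes, 2906, was 1537 without WT replicate 2, 1521 without KO replicate 1 and 1324 without KO replicate 2.

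All 6 lysosome and complement genes and 3 of the 4 surface identity genes rose in KO testes. The summed level of the 6 lysosome and complement genes was 181 and 177 CPM in KO replicates 1 and 2, against 98.3 and 98.0 CPM in WT replicates 1 and 2. That of the 4 surface identity genes was 119 and 115 CPM in KO replicates 1 and 2, against 84.1 and 81.8 CPM in WT replicates 1 and 2. For all 10 genes both KO libraries lay above both WT libraries, as they did for 35.6% of all tested genes. The median log2 fold change (KO over WT) was 0.86 over the lysosome and complement genes and 0.56 over the surface identity genes. It was 0.05 over all tested genes, and -0.12 over the 16633 of them that held at least 5 times background. Background was the level expected from reads in regions upstream of genes too low to be tested. In bulk tissue, more macrophages and more RNA per macrophage cannot be told apart. The part in these values of the lower pachytene marker level was not tested.

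**Figure D1:**
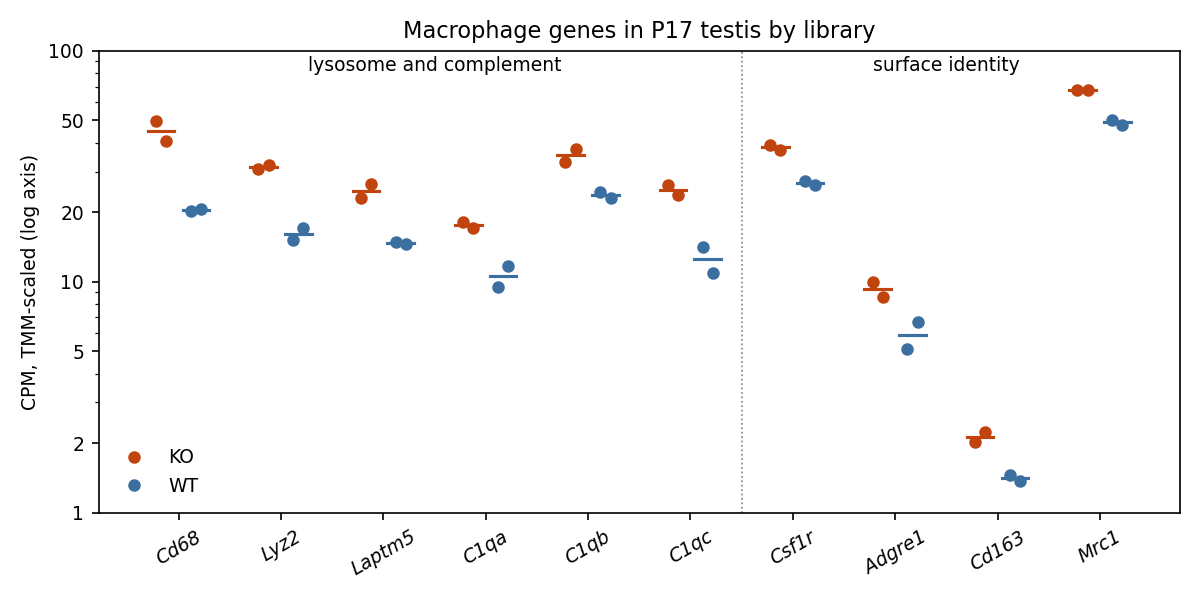
CPM of the 10 macrophage genes in each library on a log axis, KO left of WT; points are libraries and bars are means of 2. Both KO points lie above both WT points for each gene, and the levels reach from about 2.13 CPM for Cd163 to 67.5 CPM for Mrc1 in KO testes.

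Promoter sequences are shown for 5 of the genes because they differed in the size of their change: Cd68, C1qc and Lyz2 had the largest fold changes, C1qb the smallest of the C1q genes, and Mrc1 the smallest of all. The windows are RefSeq sequences of GRCm38.p6, each 300 bases long, from 250 bases before to 50 bases after the annotated start, written 5′ to 3′ on the strand of the gene. Windows were examined for 7 of the 10 genes. C1qa, Csf1r and Adgre1 were not among them, so the motif counts do not cover these genes. Capitals mark AGGAAG on either strand (read as CTTCCT on the other), the letters at the core of many sites of the macrophage transcription factor PU.1, and TGANTCA, the AP-1 motif, where N is any base.
Cd68 (chr11:69666121-69666420, minus strand): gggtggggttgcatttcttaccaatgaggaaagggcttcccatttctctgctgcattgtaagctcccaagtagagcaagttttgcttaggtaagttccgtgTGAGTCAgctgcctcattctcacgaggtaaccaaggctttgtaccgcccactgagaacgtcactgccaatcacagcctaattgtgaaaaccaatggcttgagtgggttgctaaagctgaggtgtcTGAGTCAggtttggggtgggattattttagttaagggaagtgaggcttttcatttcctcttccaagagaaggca
Lyz2 (chr10:117282223-117282522, minus strand): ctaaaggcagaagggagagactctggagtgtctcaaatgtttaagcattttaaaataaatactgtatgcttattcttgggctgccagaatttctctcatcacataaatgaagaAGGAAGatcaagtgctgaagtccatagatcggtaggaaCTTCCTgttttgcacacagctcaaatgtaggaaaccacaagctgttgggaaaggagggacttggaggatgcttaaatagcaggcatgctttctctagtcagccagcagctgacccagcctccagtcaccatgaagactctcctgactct
C1qc (chr4:136892865-136893164, minus strand): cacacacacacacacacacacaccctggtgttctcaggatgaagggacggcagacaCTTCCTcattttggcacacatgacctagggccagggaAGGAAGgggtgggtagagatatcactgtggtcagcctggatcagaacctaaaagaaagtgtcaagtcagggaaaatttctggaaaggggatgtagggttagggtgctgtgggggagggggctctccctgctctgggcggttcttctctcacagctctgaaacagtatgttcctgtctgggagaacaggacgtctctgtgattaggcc
C1qb (chr4:136886151-136886450, minus strand): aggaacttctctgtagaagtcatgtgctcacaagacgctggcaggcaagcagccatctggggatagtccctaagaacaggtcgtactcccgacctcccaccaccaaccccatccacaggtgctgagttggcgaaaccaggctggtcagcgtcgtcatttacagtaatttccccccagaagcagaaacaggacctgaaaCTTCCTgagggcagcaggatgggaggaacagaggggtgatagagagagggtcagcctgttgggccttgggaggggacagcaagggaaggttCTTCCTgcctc
Mrc1 (chr2:14229164-14229463, plus strand): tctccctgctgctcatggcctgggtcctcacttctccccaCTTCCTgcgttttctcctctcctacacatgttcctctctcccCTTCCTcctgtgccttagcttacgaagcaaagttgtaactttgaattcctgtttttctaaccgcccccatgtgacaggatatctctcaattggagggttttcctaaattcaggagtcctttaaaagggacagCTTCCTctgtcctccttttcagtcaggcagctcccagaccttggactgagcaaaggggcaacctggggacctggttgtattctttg
AGGAAG occurred 2 times in the windows of Lyz2, Laptm5, C1qb and C1qc and 3 times in that of Mrc1, and did not occur in those of Cd68 and Cd163. Of all 32851 windows in the table, 35.4% held it at least once and 8.62% at least 2 times. TGANTCA occurred 2 times in the Cd68 window and in no other of the 7. Of all windows, 7.8% held it at least once and 0.46% at least 2 times. The lysosomal CLEAR motif, searched as TCACGTGA, occurred in none of the 7 windows and in 1.0% of all windows. These are matches of letters, and binding was not measured. Mrc1, with the smallest change, and C1qc and Lyz2, with 2 of the 3 largest, held AGGAAG, while Cd68, with the largest change, did not. Whether the motif goes with the size of the change was not tested.

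Of the lysosome genes, Cd68 encodes a glycoprotein of late endosomes and lysosomes and is used as a marker of phagocytes (ENSMUSG00000018774.13, GRCm38 chromosome 11, 69664213 to 69666153, minus strand). It stood at 49.5 and 40.5 CPM in KO replicates 1 and 2, against 20.2 and 20.7 CPM in WT replicates 1 and 2. The WT libraries were nearly equal, while the KO libraries differed by 6.43 CPM (SD) around a mean of 45.0 CPM, and the groups were well apart. Cd68 had the largest change of the 10 genes, with a log2 fold change of 1.13 ± 0.0967 (95% interval 0.93 to 1.33; edgeR adjusted p = 1.07e-08), a level 2.20 times that of WT testes.

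Lyz2 encodes the lysozyme of macrophages and neutrophils, which cleaves bacterial cell walls (ENSMUSG00000069516.8, chromosome 10, 117277331 to 117282321, minus strand). Its level was 30.9 and 32.0 CPM in KO replicates 1 and 2, against 15.2 and 17.1 CPM in WT replicates 1 and 2. Replicates lay close together in both groups, and the lower KO library stood well above the higher WT library. The log2 fold change was 0.96 ± 0.0991 (adjusted p = 1.26e-07). Lyz1, a similar lysozyme gene next to it, held 8 and 4 reads in KO testes and 2 and 12 reads in WT testes and was too low to be tested. Reads that map to both copies would be missing from both counts, so the absolute level of Lyz2 is uncertain.

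Laptm5 encodes a lysosomal membrane protein of blood-derived cells (ENSMUSG00000028581.17, chromosome 4, 130913125 to 130936141, plus strand). It was measured at 23.0 and 26.6 CPM in KO replicates 1 and 2, against 14.8 and 14.5 CPM in WT replicates 1 and 2. Laptm5 rose by 0.77 ± 0.107 on the log2 scale (adjusted p = 7.30e-06).

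C1qa, C1qb and C1qc encode the 3 chains of complement C1q and are neighbours on the minus strand of chromosome 4, within positions 136880129 and 136898803. C1qc (ENSMUSG00000036896.5) stood at 26.3 and 23.7 CPM in KO replicates 1 and 2, against 14.1 and 10.9 CPM in WT replicates 1 and 2 (log2 fold change 1.0 ± 0.121, adjusted p = 1.23e-06). C1qa (ENSMUSG00000036887.5) was at 18.2 and 17.1 CPM in KO replicates 1 and 2, against 9.44 and 11.7 CPM in WT replicates 1 and 2 (0.73 ± 0.126, adjusted p = 9.82e-05). C1qb (ENSMUSG00000036905.8) was at 33.0 and 37.4 CPM in KO replicates 1 and 2, against 24.5 and 23.1 CPM in WT replicates 1 and 2 (0.57 ± 0.0924, adjusted p = 4.75e-05). All 3 chains rose. For each of them both KO libraries lay above both WT libraries, as they did for 35.6% of all tested genes. The 95% intervals of C1qc (0.75 to 1.25) and C1qb (0.38 to 0.76) met only at their ends, and the difference between these chains was not tested.

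Of the surface identity genes, Mrc1 encodes the mannose receptor CD206, a scavenger of glycoproteins on tissue macrophages and on some endothelial cells (ENSMUSG00000026712.3, chromosome 2, 14229392 to 14332057, plus strand). It stood at 67.5 and 67.6 CPM in KO replicates 1 and 2, against 50.2 and 47.7 CPM in WT replicates 1 and 2. Mrc1 had the smallest fold change of the 10 genes and the closest KO replicates (log2 fold change 0.47 ± 0.0715, adjusted p = 2.39e-05).

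Csf1r encodes the receptor for the growth factors CSF1 and IL-34 (ENSMUSG00000024621.15, chromosome 18, 61105572 to 61132149, plus strand). Its level was 39.2 and 37.1 CPM in KO replicates 1 and 2, against 27.3 and 26.1 CPM in WT replicates 1 and 2. Csf1r rose by 0.52 ± 0.0862 on the log2 scale (adjusted p = 6.41e-05). Of its 4885 exon bases, 871 lie opposite exons of Hmgxb3. The counting used strand, and no exon of the other 9 genes overlaps an annotated exon of another gene on either strand.

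Adgre1 encodes F4/80, an adhesion receptor that marks mouse macrophages (ENSMUSG00000004730.14, chromosome 17, 57358686 to 57483529, plus strand). It was at 10 and 8.55 CPM in KO replicates 1 and 2, against 5.11 and 6.67 CPM in WT replicates 1 and 2. It rose by 0.65 ± 0.166 on the log2 scale (adjusted p = 0.00465), with WT replicates that differed more than those of Csf1r or Mrc1. Without WT replicate 1, the lowest library, the log2 fold change was 0.44 and the call was lost (adjusted p = 0.0735; range over all settings 2.73e-04 to 0.0735).

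Cd163 encodes the scavenger receptor for haemoglobin bound to haptoglobin (ENSMUSG00000008845.9, chromosome 6, 124304656 to 124330527, plus strand). It held 37 and 46 reads in KO replicates 1 and 2, against 43 and 52 reads in WT replicates 1 and 2, which is 2.03 and 2.23 CPM in KO testes and 1.45 and 1.37 CPM in WT testes. Over all libraries its reads were 2.80 times those expected from background over its 5461 exon bases. The log2 fold change was 0.60 ± 0.307 (95% interval -0.04 to 1.23, adjusted p = 0.140). With background subtracted at the kept library scale the log2 fold change was 0.34 (adjusted p = 0.622; range over all settings 0.0955 to 0.622). It did not pass the test, and its interval holds the changes of the other 3 surface genes.

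**Figure D2:**
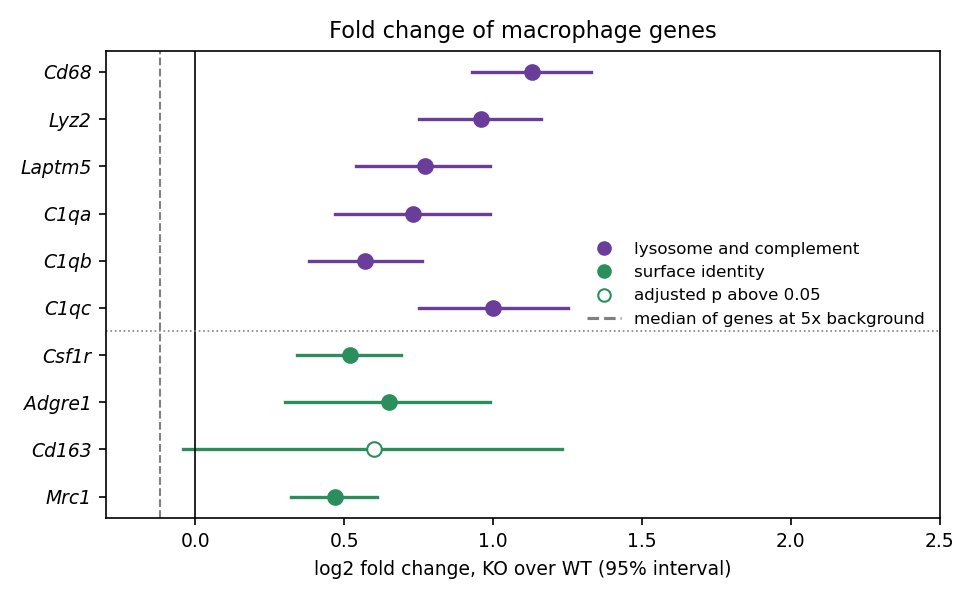
Log2 fold change, KO over WT, of each of the 10 genes with its 95% interval; filled points passed at an adjusted p under 0.05, and the dashed line is the median of -0.12 over genes at 5 times background or more. Cd68 (1.13), C1qc (1.0) and Lyz2 (0.96) lie farthest to the right, C1qb (0.57) lies within the range of the surface identity genes, and the interval of Cd163 crosses 0.

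The ratio between the 2 groups was compared within each library, where library scaling has no effect. The 6 lysosome and complement genes held 1.52 and 1.54 reads for each read of the 4 surface identity genes in KO replicates 1 and 2, against 1.17 and 1.20 in WT replicates 1 and 2. The difference between the group medians of the log2 fold changes was 0.31. Because the genes were chosen with results of these libraries known, this difference is given with no test.

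The ratio differed from gene to gene. Cd68 held 1.26 and 1.09 reads per Csf1r read in KO replicates 1 and 2, against 0.741 and 0.794 in WT replicates 1 and 2. Lyz2 held 0.789 and 0.862 reads per Csf1r read in KO replicates 1 and 2, against 0.557 and 0.655 in WT replicates 1 and 2. For both genes the KO ratios were above the WT ratios. C1qb held 0.842 and 1.01 reads per Csf1r read in KO replicates 1 and 2, against 0.900 and 0.886 in WT replicates 1 and 2, and the groups overlapped. Mrc1 held 1.72 and 1.82 reads per Csf1r read in KO replicates 1 and 2, against 1.84 and 1.83 in WT replicates 1 and 2. The 95% intervals of the log2 fold changes of Cd68 (0.93 to 1.33), Lyz2 (0.75 to 1.16) and C1qc (0.75 to 1.25) lay above those of Csf1r (0.34 to 0.69) and Mrc1 (0.32 to 0.61). Those of Laptm5 (0.54 to 0.99), C1qa (0.47 to 0.99) and C1qb (0.38 to 0.76) overlapped both. The intervals of Adgre1 (0.30 to 0.99) and Cd163 (-0.04 to 1.23) overlapped those of all 6 lysosome and complement genes.

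**Figure D3:**
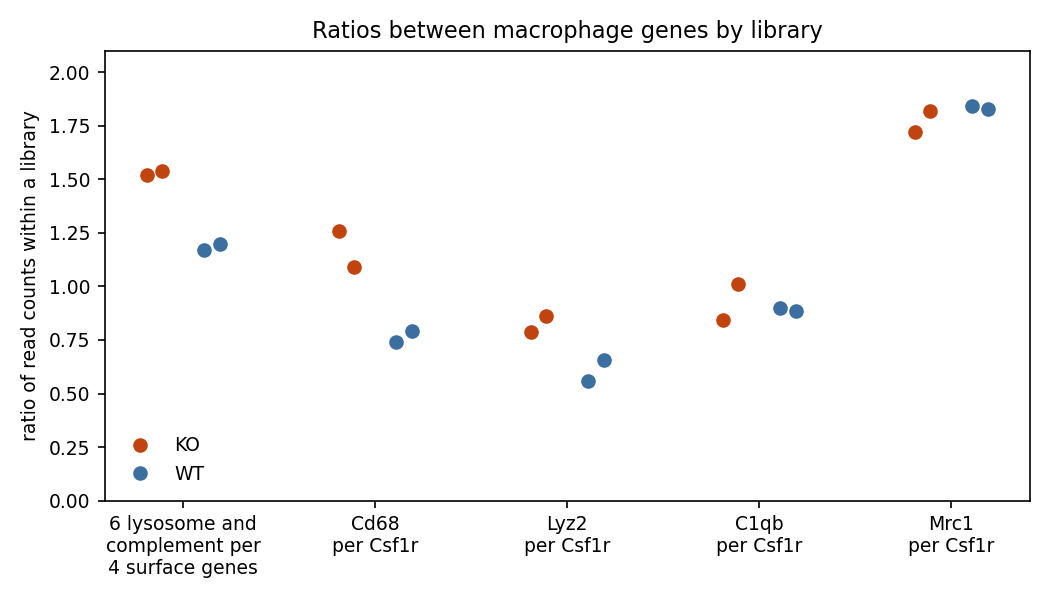
Ratios of read counts within each library, KO left of WT, 1 point per library. The ratio of lysosome and complement to surface identity reads and the ratios of Cd68 and Lyz2 to Csf1r were higher in both KO libraries, while C1qb per Csf1r overlapped between groups and Mrc1 per Csf1r lay between 1.72 and 1.84 in all 4.

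Levels between genes are compared per length, as CPM per kilobase of exon (RPKM). In KO testes Cd68 averaged 35.8 RPKM and C1qb 32.4 RPKM, and their libraries overlapped. In WT testes C1qb, at 21.9 RPKM, lay above Cd68, at 16.3 RPKM, with no overlap. Lyz2 followed at 23.9 RPKM in KO testes and 12.3 RPKM in WT testes, then C1qa at 16.9 RPKM in KO testes and 10.2 RPKM in WT testes. Laptm5 averaged 6.55 RPKM in KO testes and 3.86 RPKM in WT testes. C1qc and Mrc1 changed places: C1qc averaged 12.9 RPKM in KO testes and 6.49 RPKM in WT testes, and Mrc1 averaged 10.6 RPKM in KO testes and 7.68 RPKM in WT testes. Csf1r averaged 7.81 RPKM in KO testes and 5.46 RPKM in WT testes. Adgre1 (2.86 RPKM in KO testes and 1.82 RPKM in WT testes) and Cd163 (0.390 RPKM in KO testes and 0.259 RPKM in WT testes) were the lowest of the 10 in both groups. Among the C1q chains, C1qc per C1qb by length was 0.449 and 0.356 in KO replicates 1 and 2, against 0.325 and 0.266 in WT replicates 1 and 2. C1qa per C1qb was 0.575 and 0.478 in KO replicates 1 and 2, against 0.403 and 0.530 in WT replicates 1 and 2, where the groups overlapped.

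Of 25 further macrophage genes tested, 13 rose, 1 fell and 11 did not pass, with a median log2 fold change of 0.60. Over all tested genes under 5 times background, the median was 0.74. Of the 16 among them with at least 5 times background, 8 rose and 1 fell, with a median of 0.47. DESeq2 called 7 of the 25 higher, and 7 were called without KO replicate 2. Sirpa, an inhibitory receptor that recognises CD47, rose by 0.70 ± 0.0997 on the log2 scale. Trem2, a lipid-sensing receptor, rose by 1.08 ± 0.211, and Folr2, a folate receptor of resident macrophages, by 0.83 ± 0.175. The exception was Fcgr3, which encodes an Fc receptor: it stood at 27.9 and 30.6 CPM in KO replicates 1 and 2, against 45.2 and 48.5 CPM in WT replicates 1 and 2 (log2 fold change -0.68 ± 0.0848, edgeR adjusted p = 1.63e-06). Ptprc, the pan-leukocyte gene for CD45, held 2.09 times background and did not pass (0.43 ± 0.248, adjusted p = 0.195). Aif1, a marker of macrophages and microglia, had a log2 fold change of 0.07 ± 0.257 (adjusted p = 0.857), and Tyrobp, a signalling adaptor, one of 0.53 ± 0.214 (adjusted p = 0.0623).

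Of 8 macrophage transcription factor genes, 3 rose, 0 fell and 5 did not pass (median 0.25). All 8 held at least 5 times background, where 8.43% of all tested genes were called higher. The 5 that did not pass had log2 fold changes of 0.43 (Ikzf1), 0.12 (Cebpb), -0.03 (Nr1h3), -0.12 (Irf8) and -0.38 (Cebpa). Spi1, which encodes PU.1, stood at 10.9 and 10.1 CPM in KO replicates 1 and 2, against 6.26 and 6.30 CPM in WT replicates 1 and 2 (log2 fold change 0.74 ± 0.147). Maf, which is also expressed outside macrophages, rose by 0.50 ± 0.0731. Of 8 tested growth factor, chemokine and receptor genes, 4 rose and 0 fell (median 0.51). Of the 4 with at least 5 times background, 2 rose and 0 fell (median 0.33). Csf1, a ligand of CSF1R, was at 41.2 and 47.7 CPM in KO replicates 1 and 2, against 32.1 and 30.7 CPM in WT replicates 1 and 2 (0.51 ± 0.0867, adjusted p = 8.71e-05). The chemokine gene Cxcl12 rose by 0.51 ± 0.0955. The cytokine receptor gene Csf2rb, at 4.72 times background, rose by 0.90 ± 0.208. Ccl3 passed as well, at 2.92 times background, on 11 and 9 reads in KO testes and 4 and 2 reads in WT testes. Il34, the other CSF1R ligand, was under 1 CPM in every library (0.14 ± 0.494, adjusted p = 0.850). Of 4 tested MHC class II genes only Cd74, the invariant chain, rose (0.34 ± 0.123, adjusted p = 0.0381).

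Of 14 tested genes of the complement cascade other than C1q, 7 rose, 0 fell and 7 did not pass, with a median of 0.34. Over all tested genes 11.6% were called higher. C3ar1, the C3a receptor of myeloid cells, was at 12.9 and 11.7 CPM in KO replicates 1 and 2, against 7.34 and 5.99 CPM in WT replicates 1 and 2 (log2 fold change 0.89 ± 0.148). The C1q-bound protease gene C1s1 rose by 0.53 ± 0.0927, and C3, the central component, by 0.55 ± 0.119. No complement gene on the list was called lower under any setting tried.

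Of 36 genes for lysosomal enzymes and membrane proteins, 12 rose, 2 fell and 22 did not pass, with a median of 0.14. Of the 34 with at least 5 times background, 11 rose and 2 fell, with a median of 0.12, beside a median of -0.12 and 8.43% called higher over all tested genes at that level. Scaled to Sertoli cell genes, 3 were higher and 5 lower; without WT replicate 1 the count of higher genes was 5, and without KO replicate 2 it was 6. Without KO replicate 1, 1 gene was lower. The protease gene Ctsc stood at 23.3 and 24.9 CPM in KO replicates 1 and 2, against 16.7 and 17.2 CPM in WT replicates 1 and 2 (log2 fold change 0.51 ± 0.101). Ctsz, another protease gene, rose by 0.36 ± 0.0791. Galc, which encodes galactosylceramidase, fell by 0.42 ± 0.0834 on the log2 scale. The difference between this list and the 3 lysosome members was not tested. Of 24 genes for the uptake of dying cells, 9 rose, 1 fell and 14 did not pass (median 0.19). Of the 23 with at least 5 times background, 9 rose and 1 fell, beside 8.43% called higher over all tested genes at that level. Scaled to Sertoli cell genes, 5 of the 24 were higher. Without KO replicate 2, 2 of them were lower. Stab1, a scavenger receptor of macrophages and sinusoidal endothelium, rose by 0.58 ± 0.0869, the fatty acid and dying cell receptor gene Cd36 by 0.67 ± 0.136, Lrp1 by 0.42 ± 0.0636 and the cholesterol exporter gene Abca1 by 0.33 ± 0.0631. The uptake gene that fell was Jmjd6 (log2 fold change -0.29 ± 0.0776).

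**Figure D4:**
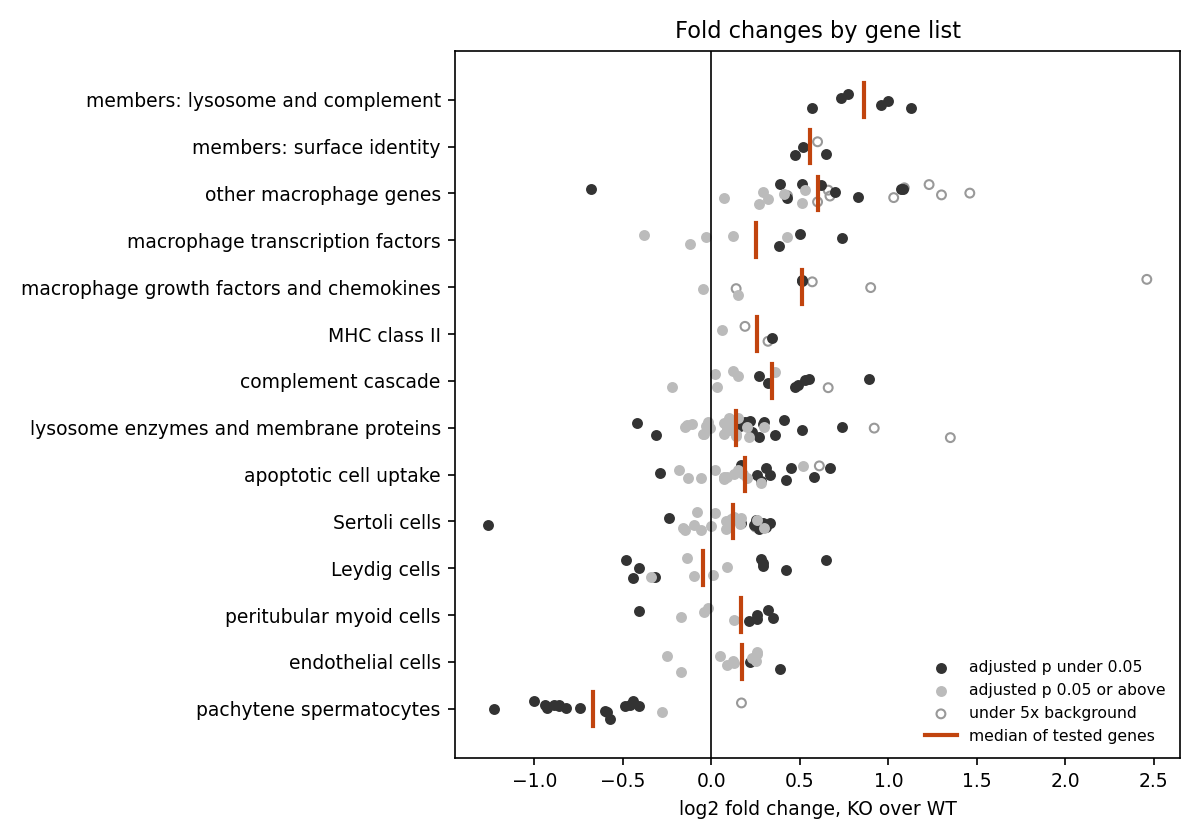
Log2 fold change, KO over WT, of each tested gene by list, with the list's median; open points held under 5 times background. The medians are 0.86 and 0.56 for the 2 groups of macrophage genes and 0.60 for the other macrophage genes, against 0.14 for lysosome genes, 0.12 for Sertoli cells, 0.17 for endothelial cells and -0.67 for pachytene spermatocytes. Over genes with at least 5 times background, the medians in the same order are 0.86, 0.52 and 0.47, against 0.12, 0.11, 0.17 and -0.74.

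Markers of other cell types were counted in the same fit. Of 26 Sertoli cell genes 7 rose and 2 fell (median 0.12), of 14 Leydig cell genes 5 rose and 4 fell (-0.04), of 10 peritubular myoid genes 5 rose and 1 fell (0.17), and of 12 endothelial genes 2 rose and 0 fell (0.17). Scaled to the Sertoli cell genes, or to the endothelial and myoid genes, the same 9 of the 10 macrophage genes kept their call. The scaling to Sertoli cell genes left out Ptgds and Dmrt1, which fell, and Nr5a1, which rose. Of 8 tested T cell genes 1 rose, Cd4 (0.62 ± 0.203), while Cd3e, the most abundant, had a log2 fold change of 0.01 ± 0.127. The median was 0.54 over the 8 T cell genes and 0.11 over the 3 of them at 5 times background. Medians were 0.35 for B cells, 0.54 for neutrophils, 1.10 for mast cells and 1.21 for NK cells, whose tested genes all held under 5 times background, where the median over all tested genes was 0.74. The median over dendritic cell genes was 0.24. Of 11 tested B cell, neutrophil and mast cell genes edgeR and DESeq2 each called 0, 2 had an unadjusted edgeR p under 0.05, and 0 reached 5 times background. Of 3 tested NK cell genes 1 passed, Klrb1c, and of 7 dendritic cell genes 1 passed, Siglech, both at fewer than 1 CPM.

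The summed level of 8 adipose genes was higher in both KO libraries and highest in KO replicate 2. It was 39.3 and 52.6 CPM in KO replicates 1 and 2, against 24.3 and 27.0 CPM in WT replicates 1 and 2. Of 6 tested adipose genes 3 rose, Plin1, Lpl and Fabp4. Lep, Retn and Pparg did not pass (log2 fold changes 0.79, 0.20 and 0.03). Lpl stood at 14.2 and 19.1 CPM in KO replicates 1 and 2, against 7.54 and 9.23 CPM in WT replicates 1 and 2. For 3 of the 6 both KO libraries lay above both WT libraries, beside 35.6% of all tested genes. Plin1, which coats lipid droplets of fat cells, stood at 17.0 and 18.8 CPM in KO replicates 1 and 2, against 10.3 and 9.97 CPM in WT replicates 1 and 2 (edgeR adjusted p = 1.15e-05). Fabp4, a fatty acid carrier of fat cells that macrophages can also make, held 38 and 111 reads in KO testes and 36 and 26 reads in WT testes. Adipoq, the defining fat cell gene, held 6 and 17 reads in KO testes and 6 and 1 reads in WT testes. Blood genes ran the other way, with a summed level of 8.07 and 7.14 CPM in KO testes and 12.7 and 15.2 CPM in WT testes, and 3 of 4 tested genes fell. Without KO replicate 2 the 9 called macrophage genes were still called, with Cd68 at a log2 fold change of 1.22 and C1qb at 0.42, but the adipose level of KO replicate 1 was also above both WT libraries. The part of attached fat or of blood in the macrophage values was not tested. Of 4 tested epididymis genes 2 rose, Gpx5 and Ovch2, each at fewer than 1 CPM in every library.

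The regions of 3000 bases upstream of genes, where short transcripts that the exosome degrades can arise, held few reads at the macrophage genes. The tables held such a region for 7 of the 10 genes. On the strand of the gene the median was 9 and 15 reads in KO replicates 1 and 2, against 8 and 17 reads in WT replicates 1 and 2, and edgeR called 0 of 6 tested regions (2 at an unadjusted p under 0.05), beside 0.0382% of all tested regions called higher in KO. The highest was that of Mrc1, with 21 and 25 reads in KO replicates 1 and 2, against 28 and 41 reads in WT replicates 1 and 2. On the opposite strand 2 of 7 regions were called higher, beside 7.64% of all regions. They were those of Lyz2, with 16 and 21 reads in KO replicates 1 and 2, against 8 and 5 reads in WT replicates 1 and 2 (edgeR adjusted p = 0.0338), and of Adgre1, with 15 and 13 reads in KO testes, against 2 and 7 in WT testes (adjusted p = 0.0487). Background over the same length was 9.03 and 10.2 reads in KO replicates 1 and 2, against 8.10 and 7.59 reads in WT replicates 1 and 2. These reads are not scaled to library size. The gene table held fewer reads in both KO libraries, so background relative to library size was higher in KO testes. With the upstream table scaled on itself, 0 of the 7 regions were called, and 1 had an unadjusted p under 0.05.

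**Figure D5:**
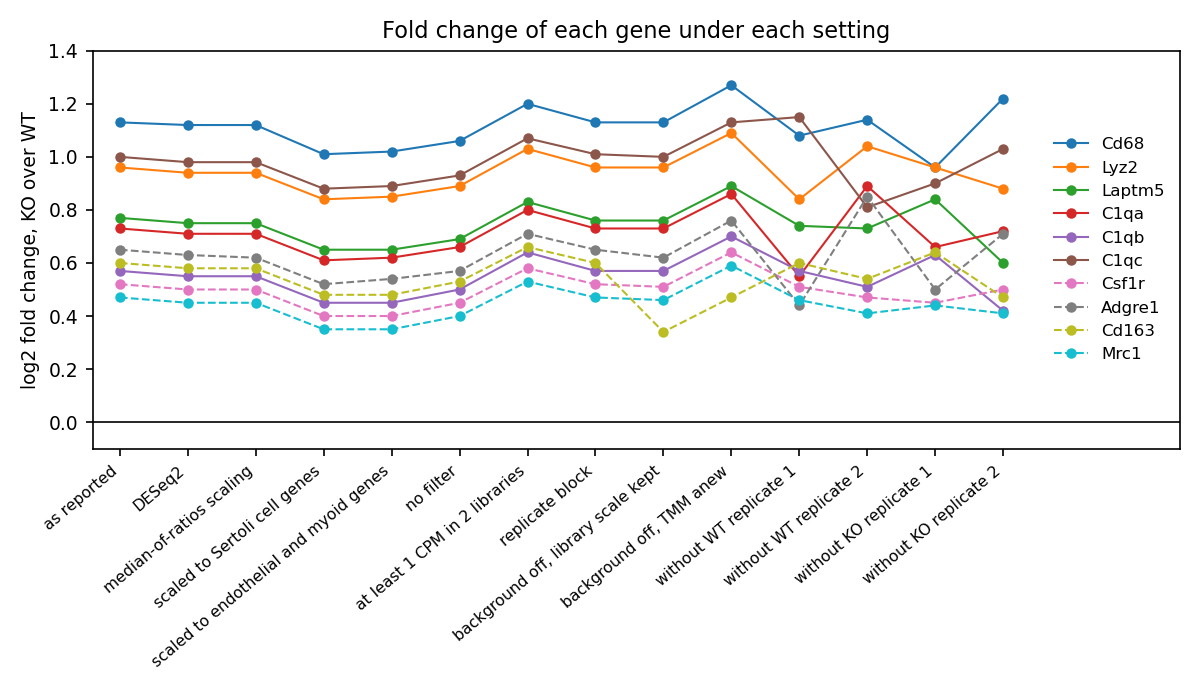
Log2 fold change, KO over WT, of each of the 10 genes as reported and under 13 other settings; solid lines are lysosome and complement genes, dashed lines are surface identity genes, and lines only join the points of a gene. Every value is above 0, and Cd68 ranges from 0.96 to 1.27 while Mrc1 ranges from 0.35 to 0.59.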

How the data were processed

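RNA of whole testes was sequenced from cDNA primed with random and poly(T) primers, with strand selection, per the labels' protocols. The values are raw read counts made by the authors with featureCounts 1.6.4 on exons of GENCODE M18, on the strand of the gene, per the file headers; the upstream regions were counted on each strand in the same way. The recorded commands show no option that keeps reads mapping to several places. Per the submitters' processing notes, HISAT2, cutadapt and GRCm38.p5 are named. Symbols matched 99.72% of gene identifiers.

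The tests on these counts used edgeR 4.0.16 (R 4.3.3, robust quasi-likelihood fit, genotype as the only term, filterByExpr, TMM). Benjamini-Hochberg adjustment was over all 25076 genes, with a threshold of 0.05. The procedure was checked on simulated counts. It called 50% of genes with a true log2 change of 1 and 46% at 0.5. For falls it called 66% at -1 and 36% at -0.5. Of unchanged genes 0.013% were called. A gene that did not pass may therefore still have changed. The SE is the log2 fold change over the square root of F. Upstream regions used the library sizes of the gene table. Background per kilobase came from upstream regions of untested autosomal genes on both strands (trimmed mean, fraction 0.25 per end). Replicates differed beyond sampling noise (chi-square per degree of freedom 5.08 in KO, 4.54 in WT). DESeq2 1.42.0 and 12 further settings were tried.

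The 10 genes, the lists and the motifs were chosen with earlier results of these data known. Named genes are the 10, Dis3, Lyz1, up to 4 called genes per list with the smallest adjusted p, and the most abundant gene of a few lists; not all of those are reported here. Ptprc, Aif1, Tyrobp, Il34, Adipoq, Jmjd6, Dmrt1, Lep, Retn, Pparg and the 5 transcription factor genes that did not pass were named after their values were seen.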

Additional observations from a re-analysis of the deposited data

How the results depend on the processing

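All 10 macrophage genes kept a positive log2 fold change under the 13 other settings, and 9 kept their side of the threshold in each of them; the exception was Adgre1 without WT replicate 1. Cd163, which was not called in any of them, had a log2 fold change of 0.34 with background subtracted at the kept library scale, against 0.60 as reported. The 6 lysosome and complement genes were called higher in every setting, and 3 surface identity genes in every setting but that one, where 2 were. The difference between the group medians stayed between 0.31 and 0.39, also with each library left out. Scaling to Sertoli cell genes moved the median of all genes by -0.12, scaling to endothelial and myoid genes by -0.11, and background subtraction with TMM anew by 0.10.

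Counts over many genes depended more on the setting; the cause was not tested. The 2906 genes called higher became 1008 with DESeq2, 1705 scaled to endothelial and myoid genes, 1937 with no filter and 1208 with background subtracted at the kept library scale, and 1324 to 2429 with 1 library left out. Genes called lower numbered 4060 to 5260 with 1 library left out, against 5092. Scaled to Sertoli cell genes the split was 1949 higher and 6940 lower. The 13 other macrophage genes called higher became 7 with DESeq2 and 7 to 11 with 1 library left out.

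The 12 lysosome genes called higher became 6 with DESeq2, 3 with either cell-type scaling, 5 with no filter, 19 with background subtracted and TMM anew, and 5 to 8 with 1 library left out. The 2 called lower became 5 scaled to Sertoli cell genes, 4 scaled to endothelial and myoid genes, 1 with background subtracted and TMM anew, and 1 to 3 with 1 library left out. The 9 uptake genes called higher became 5 with either cell-type scaling, 14 with at least 1 CPM in 2 libraries, 15 with background subtracted and TMM anew, and 6 to 8 with 1 library left out. The 1 called lower became 0 with background subtracted and TMM anew and 1 to 2 with 1 library left out. The 2 antisense upstream regions became 0 with that table scaled on itself.

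With the replicate number as a block, 3362 genes were higher and 5469 lower, and the calls of the 10 genes did not change. The numbers are not known to pair libraries: the correlation over 12554 genes of replicate 1 minus replicate 2 between the groups was 0.13. Cd163 held 37 to 52 reads per library, and its interval of -0.04 to 1.23 was the widest of the 10 genes.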
